A study of Mus musculus with 4 samples.

Results

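Muscle satellite cells and myoblasts were collected along with the cells of the mouse Achilles tendon, and 687 of them were found among 36052 barcodes of sufficient quality in 4 single-cell RNA libraries. They were chosen by transcript counts. A barcode was selected on at least 2 unique molecular identifiers (UMIs, each standing for 1 captured RNA molecule) of Pax7, Myf5 and Myod1 together and at least 1 of Chodl, Cdh15, Megf10 and Msc together. It also had fewer than 2 UMIs of Myog, at most 1 of Ptprc and none of Cdh5, which set aside differentiating myocytes, leukocytes and endothelial cells. The libraries came from uninjured neonates, injured neonates, uninjured adults and injured adults, with 1 library in each of these 4 groups. Neonates were at postnatal day 3 and adults were 6 to 8 weeks old. All 4 tissues were digested with collagenase. The kind of injury, the time between injury and sampling, the strain and the number of animals per library are not given in the sources used here. With 1 library per group no test between groups exists, so each value has an exact 95% interval, which covers counting error alone, and the spread between animals is not known.

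Satellite cells are the stem cells of skeletal muscle and lie between the muscle fibre and its basal lamina. The transcription factor PAX7 marks them, MYF5 and MYOD1 commit their progeny to the myoblast state, and MYOG (myogenin) then switches on fusion and contractile genes in cells that leave the cell cycle. In neonatal muscle these cells divide and add nuclei to growing fibres, whereas in resting adult muscle most are quiescent and return to the cycle after damage. The Achilles tendon joins the calf muscles to the heel bone, so muscle at its upper end can come away with the tendon.

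The steps from MYF5 and MYOD1 to MYOG and contractile genes use E-boxes, the 6-base sites CANNTG that MYOD1, MYF5 and MYOG bind as dimers. The 250 bases upstream of the annotated start are shown for Pax7, which defines the selected cells, and for 3 of the 10 genes lowest in them against Myog-positive myocytes: Myog itself, Tnnt2 (cardiac troponin T, also made in young skeletal muscle) and Klhl41 (a sarcomere assembly protein). Sequences are from RefSeq on GRCm38.p6, an earlier build than the GRCm39 used for the counts. The windows are chr4:139832969-139833218 on the minus strand for Pax7, chr1:134289754-134290003 on the plus strand for Myog, chr1:135836084-135836333 on the plus strand for Tnnt2 and chr2:69669870-69670119 on the plus strand for Klhl41. They are written 5′ to 3′ along the gene, with each CANNTG match in capitals.
Pax7: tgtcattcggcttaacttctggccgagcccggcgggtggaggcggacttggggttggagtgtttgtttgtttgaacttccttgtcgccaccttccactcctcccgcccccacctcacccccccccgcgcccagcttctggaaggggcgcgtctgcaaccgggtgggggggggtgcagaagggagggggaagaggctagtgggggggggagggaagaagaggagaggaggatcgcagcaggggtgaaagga
Myog: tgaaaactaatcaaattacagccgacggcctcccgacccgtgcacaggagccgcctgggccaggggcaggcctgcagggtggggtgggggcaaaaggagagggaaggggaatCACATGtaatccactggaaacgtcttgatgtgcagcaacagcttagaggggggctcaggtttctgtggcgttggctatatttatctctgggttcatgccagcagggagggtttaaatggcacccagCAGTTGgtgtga
Tnnt2: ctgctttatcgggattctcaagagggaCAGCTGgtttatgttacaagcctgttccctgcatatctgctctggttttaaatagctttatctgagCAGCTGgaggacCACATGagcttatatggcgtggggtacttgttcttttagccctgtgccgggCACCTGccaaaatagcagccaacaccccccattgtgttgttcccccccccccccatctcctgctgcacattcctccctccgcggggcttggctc
Klhl41: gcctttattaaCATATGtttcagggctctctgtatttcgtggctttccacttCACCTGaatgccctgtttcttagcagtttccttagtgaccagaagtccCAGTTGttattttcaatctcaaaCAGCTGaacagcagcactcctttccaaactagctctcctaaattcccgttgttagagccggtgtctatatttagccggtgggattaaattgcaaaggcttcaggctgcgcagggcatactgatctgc

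The Pax7 window held 0 CANNTG matches, the Myog window 2, and the Tnnt2 and Klhl41 windows 4 each. The narrower form CAGCTG was present 2 times in the Tnnt2 window, 223 and 157 bases before the start, and 1 time in the Klhl41 window, 127 bases before it. Both motifs are palindromic, so a match stands for both strands, and every CAGCTG is also a CANNTG. Of all 32851 promoter windows of this length, 66.2% held a CANNTG and 13.0% held a CAGCTG. A match describes letters in the window and not binding.

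The selected cells made up 4.56% of quality barcodes in the uninjured neonate (476 of 10429, interval 4.17 to 4.98). Their share was 0.867% in the injured neonate (129 of 14885, interval 0.724 to 1.03). In the uninjured adult it was 1.15% (70 of 6113, interval 0.894 to 1.44), and in the injured adult 0.259% (12 of 4625, interval 0.134 to 0.453). Both injured libraries were thus below the uninjured library of their age, and the intervals did not overlap. A share depends on how much muscle was taken with each tendon and how many other cells were released, neither of which was measured. It also depended on depth: with every barcode thinned to 2000 UMIs the shares were 0.718%, 0.305%, 0.670% and 0.141% in the same order. The uninjured neonate and adult then lay close together, and the injured libraries were still the lower of each age.

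**Figure D1:**
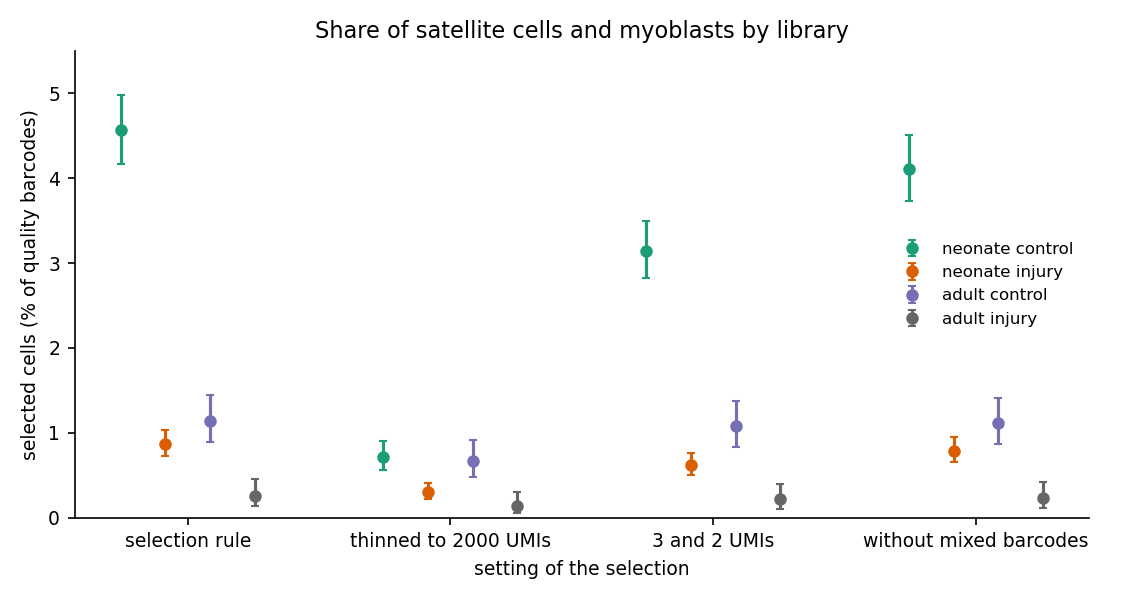
Share of selected cells among quality barcodes (%, y axis) in the 4 libraries under 4 settings of the selection (x axis): the rule itself, barcodes thinned to 2000 UMIs, a stricter rule of 3 and 2 UMIs, and without barcodes that held RNA of another cell type. Points are shares and bars are exact binomial 95% intervals. The uninjured neonate stands at 4.56% under the rule and at 0.718% after thinning, next to the uninjured adult at 0.670%.

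Several features of the libraries bear on every later value. The selected cells had median depths of 10934, 6140, 8922.5 and 8868.5 UMIs in the uninjured neonate, injured neonate, uninjured adult and injured adult. The libraries differed in sex-linked transcripts: 425 of the selected cells of the uninjured neonate (89.3%) held Y-linked UMIs and 0 held Xist, whereas 64 (91.4%) of those of the uninjured adult held Xist and 0 held a Y-linked UMI. The injured neonate held both kinds, 94 (72.9%) with Xist alone and 22 (17.1%) with Y-linked UMIs alone, and all 12 of the injured adult held Xist. Age and sex therefore cannot be told apart in the comparison of uninjured libraries, and the neonate comparison is also given for the injured cells with Y-linked UMIs alone. Pairs of libraries shared 3 to 44 quality barcode sequences, and 0 of the selected cells shared one.

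Some selected barcodes carried RNA of other cells. More than 1% of the UMIs came from a marker list of another cell type in 62 of 687 (9.02%), and Scrublet, which scores barcodes for likeness to simulated doublets, marked 49 of these 62. They numbered 48, 11, 2 and 1 in the 4 libraries, and fibroblast markers passed 1% in most: 43 of the 48 in the uninjured neonate and 8 of the 11 in the injured neonate. In the uninjured adult, 2 barcodes with fibroblast and tenocyte markers were the whole of the set, and the 3 highest barcodes held 86.5% of all tenocyte-marker UMIs. Erythroid markers summed to 756 UMIs per 1000000 (CPM) in the uninjured neonate and 4951 CPM in the injured one, of which the 3 highest barcodes held 88.1% and 96.3%. The selected cells kept 4293 to 6589 CPM of the 5 fibroblast markers, against 20179 to 49846 CPM in the other barcodes, and all 4 T and NK cell markers were at 0 in all 4 libraries. Values without these 62 mixed barcodes are given beside the list counts and named ratios that they moved most.

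The genes of the selection rule describe the cells but cannot support their identity. Pax7 stood at 145 CPM (interval 136 to 155) in the uninjured neonate, 231 (201 to 263) in the injured neonate, 660 (597 to 728) in the uninjured adult and 678 (531 to 852) in the injured adult. Its level in the selected cells was thus higher per transcript captured in both adult libraries than in either neonate library, with intervals that did not overlap. The rule asked for a fixed number of UMIs of Pax7, Myf5 and Myod1 together, at differing depths. Levels of the selection genes therefore depend on the rule, and their differences between libraries are descriptions. Pax7 UMIs were present in 77.7%, 74.4%, 98.6% and 100% of the selected cells, against 1.34%, 0.288%, 0.477% and 0.389% of endothelial barcodes with median depths of 14099.5, 6670, 8085 and 7935.5 UMIs. Myf5 stood at 151, 143, 217 and 92.8 CPM. Myod1 had another order: 63.0 CPM in the uninjured neonate, 229 in the injured neonate, 142 in the uninjured adult and 316 in the injured adult, so that each injured library was above the uninjured one of its age.

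Among the second group of selection genes, Chodl (chondrolectin, a membrane lectin) followed Pax7, at 133, 160, 660 and 687 CPM. M-cadherin, encoded by Cdh15, which joins satellite cells to their fibre, stood at 95.4, 135, 134 and 176 CPM. The scavenger receptor gene Megf10 was lowest in the uninjured neonate, at 112 CPM against 264, 241 and 251 in the other libraries. Msc (musculin, a repressor of MYOD1 activity) was higher in the neonates, at 137 and 198 CPM, than in the adults, at 76.6 and 74.3. Barcodes just outside the rule differed from those just inside it: in the uninjured neonate the 143 barcodes with 1 UMI of the first group held 5262 CPM of Col1a1 and 83.5 of Des, and the 127 with exactly 2 held 2829 and 108.

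**Figure D2:**
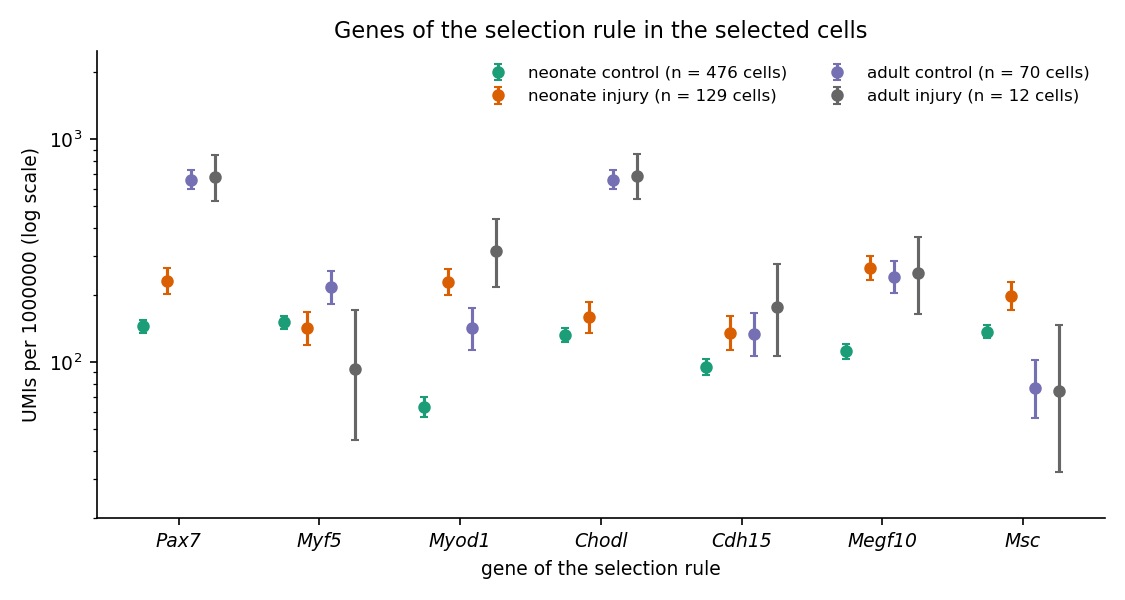
Levels of the 7 genes that admitted a cell (x axis) in UMIs per 1000000 on a log scale (y axis), summed over the selected cells of each library. Points are levels and bars are exact Poisson 95% intervals. Pax7 and Chodl lie between 133 and 231 in the neonates and between 660 and 687 in the adults, and Myod1 is lowest, at 63.0, in the uninjured neonate.

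After each selected cell was thinned to 2000 UMIs, Pax7 and Myod1 could be read at equal depth in 475, 127, 68 and 11 cells. Values are the share expected over all draws of that many UMIs. The cells had been selected by these genes before thinning, so deeper cells could enter at a lower CPM of them. The shares therefore still depend on depth and on the rule, and are a description. Pax7 without Myod1 was expected in 25.6% of cells of the uninjured neonate, 30.8% of the injured neonate, 59.3% of the uninjured adult and 52.9% of the injured adult. Myod1 without Pax7 was expected in 9.02%, 24.3%, 5.77% and 6.61%, and both together in 1.73%, 8.91%, 9.49% and 19.5%. At this depth many cells held neither, so the shares describe detection and not separate cell types.

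Genes of the myogenic lineage that the rule did not use were also high in the selected cells. Fgfr4, the fibroblast growth factor receptor of the myogenic lineage, stood at 177 CPM in the selected cells of the uninjured neonate and 5.84 CPM in the other quality barcodes without Myog-positive myocytes (7.75 CPM with the myocytes), and at 255, 349 and 316 CPM in the selected cells of the other libraries. Asb5, an ankyrin-repeat and SOCS-box gene of muscle, and Vgll2, a partner of TEAD factors in muscle, were above the other barcodes by log2 ratios of 5.42 and 5.01 in the uninjured neonate and 6.41 and 6.65 in the injured one. Mybpc1 (slow myosin-binding protein C), Bves (a popeye-domain membrane protein), Mrln (myoregulin, an inhibitor of the calcium pump SERCA) and the non-coding RNA Lincmd1 had log2 ratios of 4.89, 4.81, 4.73 and 4.71 in the uninjured neonate, and all 4 were higher in the injured one too, Mybpc1 by 7.39. With the Myog-positive myocytes counted among the other barcodes, the log2 ratios in the uninjured neonate were 5.15 for Asb5, 3.91 for Vgll2, 4.73 for Mybpc1 and 2.54 for Lincmd1. In the uninjured adult Asb5 and Mybpc1 stood at 156 and 279 CPM. Vgll2, Bves, Mrln and Lincmd1 were low there, at 19.6, 13.0, 9.78 and 6.52 CPM, from 12, 8, 6 and 4 UMIs. The other adult barcodes held 0.178, 0.919, 1.10 and 0.0296 CPM of these. Lbx1, the homeobox gene of migrating limb muscle precursors, was detected at 33.6, 51.4, 47.3 and 27.8 CPM in the 4 libraries, and Tcf21, a factor of head muscle and connective tissue, was at 0 in all 4. Myofibre markers summed to 162, 114, 42.4 and 46.4 CPM in the selected cells, against 355, 132, 93.1 and 45.1 CPM in the other barcodes. Unlike the genes above, they were thus not higher in the selected cells, or were near level.

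Myog-positive myocytes of the uninjured neonate (151 barcodes with at least 2 Myog UMIs) were set against the selected cells of that library. Since Myog decided the split, the comparison is a description. Of 9843 genes with at least 50 UMIs in the pair, 1301 (13.2%) were at least 2-fold higher in the selected cells and 582 (5.91%) at least 2-fold lower. The genes lowest in the selected cells were those of fusion and the first sarcomeres. Mymx and Mymk, which encode the fusion proteins myomixer and myomaker, stood at 0.52 against 380 CPM and 0.87 against 190 CPM. Tnnt2 stood at 1.38 against 533 CPM, Tnni1 (slow troponin I) at 0.52 against 167, Myh3 (embryonic myosin) at 0.35 against 56.2, and Klhl41 at 1.21 against 96.5. Of 26 contractile and differentiation genes measured, 23 passed the 2-fold mark on the low side and 0 on the high side (median log2 ratio -3.21).

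Most genes of the cell cycle were higher in the selected cells. So were 6 of 20 secreted signal genes and 5 of 13 Notch pathway genes, with 0 and 2 lower, against 13.2% higher and 5.91% lower among all genes measured. Growth factor receptor genes were higher in 5 of 27 and lower in 0, which for the higher ones is near the share of all genes. Notch3, whose signal holds satellite cells undifferentiated, stood at 151 CPM in the selected cells and 11.0 in the myocytes, and its target Heyl was higher by a log2 ratio of 2.92. Rcan2, a regulator of calcineurin, stood at 77.2 against 3.31 CPM, Vav3, a guanine nucleotide exchange factor, at 213 against 18.2, and Tagln (transgelin) at 285 against 33.6. The G2M genes, whose transcripts mark cells about to divide or dividing, passed the 2-fold mark on the high side in 20 of 20 (median log2 ratio 1.59), and S phase genes in 11 of 18. Of 25 matrix genes of the satellite cell surroundings, 16 were higher and 0 lower, among them Tnc (tenascin C) at 2.58 and the basement membrane collagens Col4a1 and Col4a2 at 2.07 and 2.15. In the other direction, the Notch ligand gene Dll1 and the cell cycle inhibitor gene Cdkn1c were lower in the selected cells, by log2 ratios of -2.21 and -1.83, with Cdkn1c at 2819 CPM against 10005. The 10 highest and 10 lowest genes had the same sign in the injured neonate, where Notch3 reached 5.98 and Actc1 (cardiac actin) -7.98.

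Promoter windows were on hand for 8 of the 10 lowest genes, of which 7 held a CANNTG and 4 a CAGCTG (Tnnt2, Tnni1, Mylk4 and Klhl41). Of the 10 highest genes 6 had a window, 1 with a CANNTG and 0 with a CAGCTG. Over all windows the shares were 66.2% and 13.0%, so most promoter windows held a CANNTG. The ranking came from a split by Myog. It holds selection genes, with Myog among the lowest and Pax7, Myf5 and Msc among the highest. With 8 and 6 windows, a difference between the sets was not tested. The Tnnt2 and Klhl41 sequences shown above are among the 4 with a CAGCTG and belong to the group almost absent from the selected cells. The Pax7 sequence without a match belongs to the other group.

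**Figure D3:**
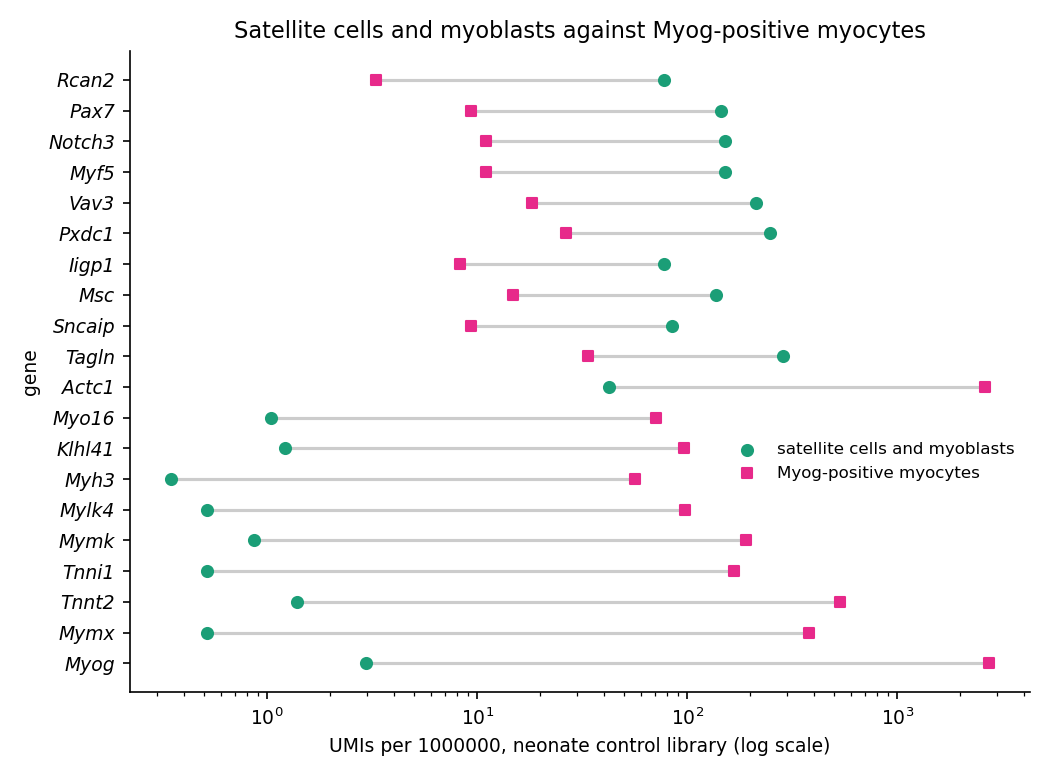
Levels in UMIs per 1000000 (x axis, log scale) of the 10 genes highest and the 10 lowest in the selected cells against Myog-positive myocytes of the uninjured neonate (y axis). Circles are the 476 selected cells and squares the 151 myocytes, each summed. Mymx lies at 0.52 in the selected cells and 380 in the myocytes, and Notch3 at 151 and 11.0.

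Transcripts of division were common in both neonates and scarce in the uninjured adult. With each cell thinned to 1000 UMIs, at least 2 G2M UMIs were found in 163 of 476 selected cells of the uninjured neonate (34.2%, interval 30.0 to 38.7) and in 52 of 129 of the injured neonate (40.3%, interval 31.8 to 49.3). These intervals overlapped. In the uninjured adult 1 of 70 cells met the mark (1.43%, interval 0.0362 to 7.70), and in the injured adult 0 of 12 did, which allows up to 26.5%. The 2 neonates thus held dividing cells in numbers that the uninjured adult did not, while the 12 injured adult cells were too few to place. In other cells of the same libraries the mark was also met more often in both neonates than in the uninjured adult. Endothelial barcodes met it in 27.9% of the uninjured neonate, 11.8% of the injured neonate and 0.381% of the uninjured adult. For all barcodes that were neither selected nor Myog-positive the shares were 12.7%, 5.14% and 0.430%. Both of these sets were thus lower in the injured than in the uninjured neonate. In the injured adult 8.37% of endothelial barcodes and 7.53% of barcodes neither selected nor Myog-positive met the mark. Myog-positive myocytes met the mark in 13.2% of the uninjured and 10.8% of the injured neonate.

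**Figure D4:**
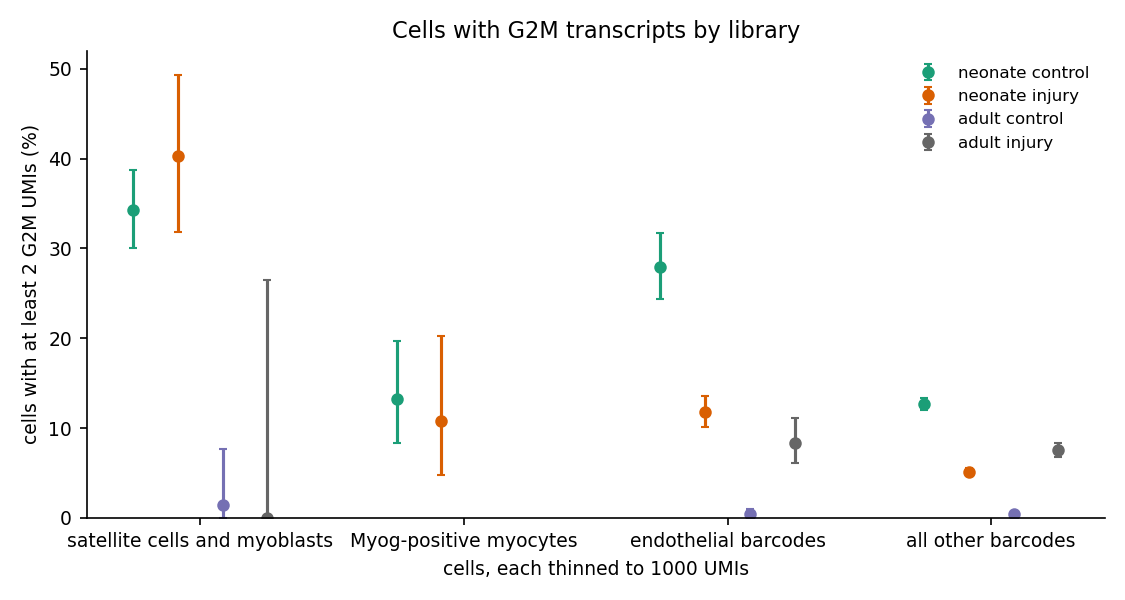
Share of cells with at least 2 G2M UMIs after thinning to 1000 UMIs (%, y axis) in the selected cells, Myog-positive myocytes, endothelial barcodes and all barcodes that were neither selected nor Myog-positive (x axis), by library. Points are shares and bars are exact binomial 95% intervals, and the 2 adult myocytes of each library are not drawn. Selected cells stand at 34.2% and 40.3% in the neonates, and endothelial barcodes at 27.9% and 11.8%.

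Within the neonates, cells with Myod1 met the G2M mark more often in both libraries. The mark was met by 86 of 162 cells with a Myod1 UMI (53.1%, interval 45.1 to 61.0) and 77 of 314 without one (24.5%, interval 19.9 to 29.7) in the uninjured neonate. In the injured neonate it was met by 40 of 76 (52.6%, interval 40.8 to 64.2) and 12 of 53 (22.6%, interval 12.3 to 36.2). With Myod1 read at an equal depth of 2000 UMIs, the shares expected over all draws were 56.4% with and 31.7% without it in the uninjured neonate, and 54.4% and 34.2% in the injured neonate. For Pax7 at that depth they were 26.8% with and 37.2% without it, and 34.4% and 45.3%. Both Myod1 and Pax7 are selection genes. A cell without 1 of them needed 2 UMIs of the remaining genes of the first group to enter. The 2 splits are therefore not independent of each other or of the rule, and are descriptions. Genes that were higher with Myod1 included early muscle genes: Actc1 by a log2 ratio of 3.80 in the uninjured and 1.35 in the injured neonate, Lincmd1 by 3.34 and 2.01, Ttn (titin) by 2.49 and 3.29, and Chrna1 (a subunit of the muscle acetylcholine receptor) by 2.17 and 1.05. The injured neonate held 8 Actc1 UMIs in all, and the interval of its ratio there was -1.12 to 7.33. The direction of Actc1 in the injured neonate is therefore not settled. Lower with Myod1 were Igfbp5, by -1.30 and -1.23, and Ltbp1, a latent TGF-beta binding protein, by -1.67 and -1.26. Myf5 was also lower, by -1.43 and -1.05, which the selection rule favours, since a cell without Myod1 needed 2 UMIs of Pax7 and Myf5 to enter. The mast cell protease gene Cma1 also stood higher with Myod1 in the uninjured neonate, by 4.75, but 258 of its 285 UMIs lay in 1 barcode and the ratio without mixed barcodes was 0.24.

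The injured neonate was next set against the uninjured neonate to see what differed in these cells with tendon injury. Of 9587 genes, 600 (6.26%) were at least 2-fold higher and 694 (7.24%) at least 2-fold lower with injury, and the median log2 ratio of all genes was 0.03. Among the lists, most heat shock genes and a part of the immediate-early and cholesterol synthesis genes were lower, single myogenic and surface genes were higher, and genes of division were about level. Selected cells with Y-linked UMIs alone numbered 22 in the injured neonate, and 65 of the 75 named genes past 2-fold that could be measured in them stayed past 2-fold.

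Of 20 myogenic transcription factor genes, 3 passed the 2-fold mark upward and 2 downward (median log2 ratio 0.50). One of the 3 was Myod1, a selection gene, at 229 CPM against 63.0 (log2 ratio 1.86, interval 1.61 to 2.11). The rule asks for a fixed number of UMIs at median depths of 6140 and 10934, so a shallower cell needs a higher CPM of these genes to enter, and the ratio of a selection gene is a description. Without selection genes the list held 2 higher and 2 lower of 16 (median 0.33). Barx2, a homeobox gene of satellite cells, stood at 62.9 against 15.2 CPM and Pitx3 at 46.2 against 17.8. Meox2 was lower, by a log2 ratio of -1.89. Of 16 surface genes 4 were higher and 1 lower: Itga7, the laminin-binding integrin of muscle, at 115 against 49.0 CPM, Cdh2 (N-cadherin) at 111 against 48.3, Calcr, the calcitonin receptor, at 87.1 against 37.9, and the selection gene Megf10, with Cd34 at 43.0 against 89.3. Without selection genes 3 of 13 were higher and 1 lower, and without mixed barcodes the lower call of Cd34 was lost. For Itga7 the log2 ratio of 1.24 was 0.90 in the injured cells with Y-linked UMIs alone, and for Calcr that of 1.21 was 0.87 without cells holding at least 2 G2M UMIs at full depth (321 and 76 cells of the uninjured and injured neonate).

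Of 13 Notch pathway genes 2 were higher and 2 lower with injury, and of 18 quiescence genes 4 were higher and 1 lower. Heyl stood at 106 CPM with injury and 35.3 without, and Hes6 was higher by a log2 ratio of 1.13, whereas Hes1 stood at 71.3 against 192 CPM. Notch3 itself stood at 280 against 151 CPM, a log2 ratio of 0.89. Nfix, a transcription factor gene, stood at 679 against 299 CPM, and Tenm4 (teneurin 4) at 364 against 162. Imprinted growth genes were lower in 5 of 21: Dlk1, which encodes a membrane relative of the Notch ligands, stood at 697 against 1843 CPM and Cdkn1c at 792 against 2819. The other barcodes of these libraries showed Cdkn1c at 346 against 1080 CPM.

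Muscle structural genes were likewise divided, with 4 of 16 contractile and differentiation genes higher and 4 lower. Ttn stood at 115 CPM with injury and 33.1 without, Chrna1 at 124 against 38.4, and Des (desmin, the intermediate filament of muscle) at 217 against 96.1. The gene of dystroglycan, Dag1, stood at 1506 against 623 CPM, and Cdon, a cell-surface receptor that promotes differentiation, at 387 against 119. Actc1 was lower, at 8.39 against 42.6 CPM. Without mixed barcodes the list held 4 higher and 2 lower.

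Genes of division were near level in the selected cells, with 0 of 20 G2M genes 2-fold apart in either direction (median log2 ratio -0.18) and 1 higher and 1 lower of 18 S phase genes. Without mixed barcodes 1 G2M gene was lower, Cdc20 at -1.29, and the median was -0.32. In the other barcodes of the same libraries, 18 of the 20 G2M genes were at least 2-fold lower with injury, with a median of -1.49. The difference between these medians was not tested. Within the cell cycle list of cyclins and their inhibitors, Ccnd1 (cyclin D1) was higher, at 317 against 157 CPM, and Ccnd2 was lower, by a log2 ratio of -1.61.

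The heat shock list held 9 of 13 genes at or beyond 2-fold lower (median -1.28). It was led by Hspa1a at 2.10 against 185 CPM and Hspa1b at 3.15 against 62.6, from 2 and 3 UMIs with injury. The other barcodes had 8 of these genes lower and a median of -1.56. Of 22 immediate-early genes, which respond within minutes to stimulation or handling, 9 were lower, among them Klf2 at 68.2 against 431 CPM and Junb at 632 against 2049. The other barcodes had 4 of these 22 lower, with a median of -0.42 against -0.89 in the selected cells, and without mixed barcodes 7 were lower in the selected cells. Of 18 cholesterol synthesis genes 7 were lower, led by Cyp51 and Idi1 at log2 ratios of -2.35 and -2.23, and 7 were lower in the other barcodes. The part of tissue handling in these differences was not tested.

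Several signal and matrix genes were lower. Mstn, which encodes the muscle growth inhibitor myostatin, stood at 4.20 CPM with injury and 33.6 without (log2 ratio -2.83, and -4.43 without mixed barcodes). The injured level of Mstn lay near the floor of 3 UMIs, 3.15 CPM, so the size of its ratios is uncertain. Ccl2, a monocyte chemokine, stood at 18.9 against 130, and Cxcl1, a neutrophil chemokine, at 172 against 906. In all, 1 of 20 secreted signal genes was at least 2-fold higher and 7 lower, but 4 and 5 without mixed barcodes, where the log2 ratio of Il6 moved from -1.67 to -0.46. Among 25 matrix genes 5 were lower, led by the laminin genes Lama5, Lamb1 and Lama4 at log2 ratios of -1.99, -1.42 and -1.39, and 0 were higher. Without mixed barcodes the Lama4 ratio was -2.79, and 1 matrix gene was higher and 5 lower.

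The genes with the highest ratios were Pcdh15, a protocadherin, at 98.6 against 6.75 CPM, Popdc2, a popeye-domain relative of Bves, at 51.4 against 4.33, and Esr1, estrogen receptor alpha, at 135 against 14.5. The Esr1 log2 ratio was 3.22 in all injured cells and 3.88 in those with Y-linked UMIs alone. Gpx3, a secreted glutathione peroxidase, stood at 181 against 32.9 CPM, and the non-coding RNA Morrbid at 256 against 46.9. In the other barcodes of these libraries Gpx3 was also higher with injury, at 45.1 against 8.31 CPM. So were Pcdh15, at 24.2 against 4.14, and Esr1, at 89.3 against 28.8. Popdc2 and Morrbid were level there, at 0.804 against 0.814 CPM and 39.7 against 39.7. At the other end, apart from the heat shock genes, Ccn3, a secreted matricellular protein gene, stood at 1.05 against 72.5 CPM. Its log2 ratio was -5.53, and -4.59 without mixed barcodes. The injured level was 1 UMI, so the interval of the ratio was wide, -11.4 to -3.63. Several of the lowest genes are fibroblast genes and moved without mixed barcodes: Ly6a from -3.80 to -2.31, Igfbp6 from -3.57 to -1.10, Has1 from -3.44 to -2.13 and Clec3b from -2.87 to -1.53. Without barcodes holding Ptprc, Pecam1 or Pdgfra the Clec3b ratio was -0.79.

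The uninjured neonate was then set against the uninjured adult. Both this comparison and the last use the uninjured neonate library. Of 9447 genes, 2064 (21.8%) were at least 2-fold higher in the neonate and 1022 (10.8%) at least 2-fold lower. The median log2 ratio of all genes was 0.19, and scaling by the median of ratios, which shifts every ratio by -0.20, gave 1666 higher and 1386 lower, so that the higher share of these genes went from 66.9% to 54.6%. Counts under that scaling are given below where they differ. Genes of division and most imprinted growth, signal and matrix genes of the lists were higher in the neonate, and more surface and quiescence genes were higher in the adult than in the neonate.

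All 20 G2M genes and all 18 S phase genes were at least 2-fold higher in the neonate. Top2a, topoisomerase II alpha, stood at 428 against 1.63 CPM, which is 1 UMI in the adult, and Birc5 (survivin) at 242 against 0. With the floor of 3 UMIs per library for genes at 0 in the adult, Birc5 was at least 49.4-fold higher, Pclaf at least 47.1-fold and Ube2c at least 38.3-fold. The G2M median was 4.09 with such genes at their bound. The other barcodes also had all 20 G2M genes higher in the neonate, with a median of 4.07. Without cells holding at least 2 G2M UMIs at full depth (321 and 6 cells of the neonate and adult) the S phase median was 2.77, against 3.72 with them.

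Imprinted growth genes were higher in the neonate in 13 of 21. Dlk1 stood at 1843 CPM in the neonate and 0 in the adult (at least 377-fold higher), the growth-restraining RNA H19 at 630 against 1.63, Mest at 716 against 4.89 and Cdkn1c at 2819 against 42.4. These differences were not particular to muscle: 19 of the list were higher in the other neonate barcodes, where Dlk1 stood at 1833 against 4.16 CPM. Gpc3, a glypican that restrains growth, stood at 620 against 0 CPM (at least 127-fold higher), and Nrk, a gene of a NIK-related kinase, at 501 against 0 (at least 102-fold).

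Matrix and secreted signals were also higher in the neonate, with 16 of 25 matrix genes higher and 2 lower and 16 of 21 signal genes higher and 2 lower, or 14 higher under the other scaling. Lamb1 stood at 254 against 3.26 CPM, Vcan (versican) at 322 against 4.89 and Col6a3 at 205 against 6.52. For Tnc the level was 549 against 34.2 CPM, a log2 ratio of 3.97. Without mixed barcodes Tnc was at 0 in the adult, and at least 114-fold higher in the neonate. The growth factors Ptn (pleiotrophin) and Mdk (midkine) were higher by 5.93 and 5.64, with Ptn at 4.81 without mixed barcodes. Without them the signal list held 14 higher and 2 lower and the matrix list 16 higher and 3 lower. The laminin gene of mature muscle, Lama2, went the other way, at 582 against 1519 CPM.

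Of 18 quiescence genes 8 were at least 2-fold higher in the adult and 3 in the neonate, or 11 and 3 under the other scaling and also without mixed barcodes, with Heyl at 209 CPM in the adult and 35.3 in the neonate, Tenm4 at 944 against 162 and Notch3 at 394 against 151. Of 16 surface genes 8 were higher in the adult (9 under the other scaling) and 1 in the neonate: Sdc4 (syndecan 4) stood at 1384 CPM in the adult and 248 in the neonate, and Calcr at 183 against 37.9. Without selection genes 6 of 13 surface genes were higher in the adult and 1 in the neonate, and without mixed barcodes 7 of the 16. In the other barcodes the medians of these lists were 0.21 and 0.12, against -0.94 and -0.93 in the selected cells, with no test of the difference. Of 27 growth factor receptor genes 5 were higher in the adult and 2 in the neonate, or 10 and 2 under the other scaling, with Fgfr1 at 983 CPM in the adult against 246 and Ror1, a WNT5A receptor, at 1586 against 287. Higher in the neonate were Gfra1 and Ror2, by log2 ratios of 2.44 and 3.26 (intervals 1.69 to 3.46 and, with 1 adult UMI, 1.34 to 9.16). Contractile and differentiation genes were higher in the neonate in 10 of 16 and lower in 1, with Actc1 and Ttn at least 8.71-fold and 6.76-fold higher. This was not particular to the selected cells: in the other barcodes 9 of the 16 were higher and 1 lower. The list median was 1.69 there and 1.55 in the selected cells. The lower gene in the selected cells was Des, at 96.1 CPM in the neonate and 645 in the adult, and the dystrophin gene Dmd of another list stood at 471 against 2019.

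Genes highest in the adult relative to the neonate included Hsd11b1, which regenerates active glucocorticoid, at 279 against 1.56 CPM, Hs6st3, a heparan sulfate 6-O-sulfotransferase gene, at 627 against 6.40, and Cd200, an immune-inhibitory ligand, at 328 against 5.54. P2ry14, a receptor for UDP-sugars, stood at 210 against 4.15 CPM. Chad (chondroadherin) had the lowest log2 ratio, at -7.97, but is a tendon and cartilage matrix gene, and 91.0% of its adult UMIs lay in 2 barcodes. Cilp2 had 90.5% of its adult UMIs in 2 barcodes, and without mixed barcodes the ratios of Chad and Cilp2 were -4.80 and -3.23. Of the early-response genes 6 of 22 were higher in the adult and 1 in the neonate, or 9 and 1 under the other scaling and 7 and 1 without mixed barcodes, with Fosb at 2971 CPM in the adult and 1071 in the neonate. Heat shock genes went the other way, with 8 of 13 higher in the neonate.

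**Figure D5:**
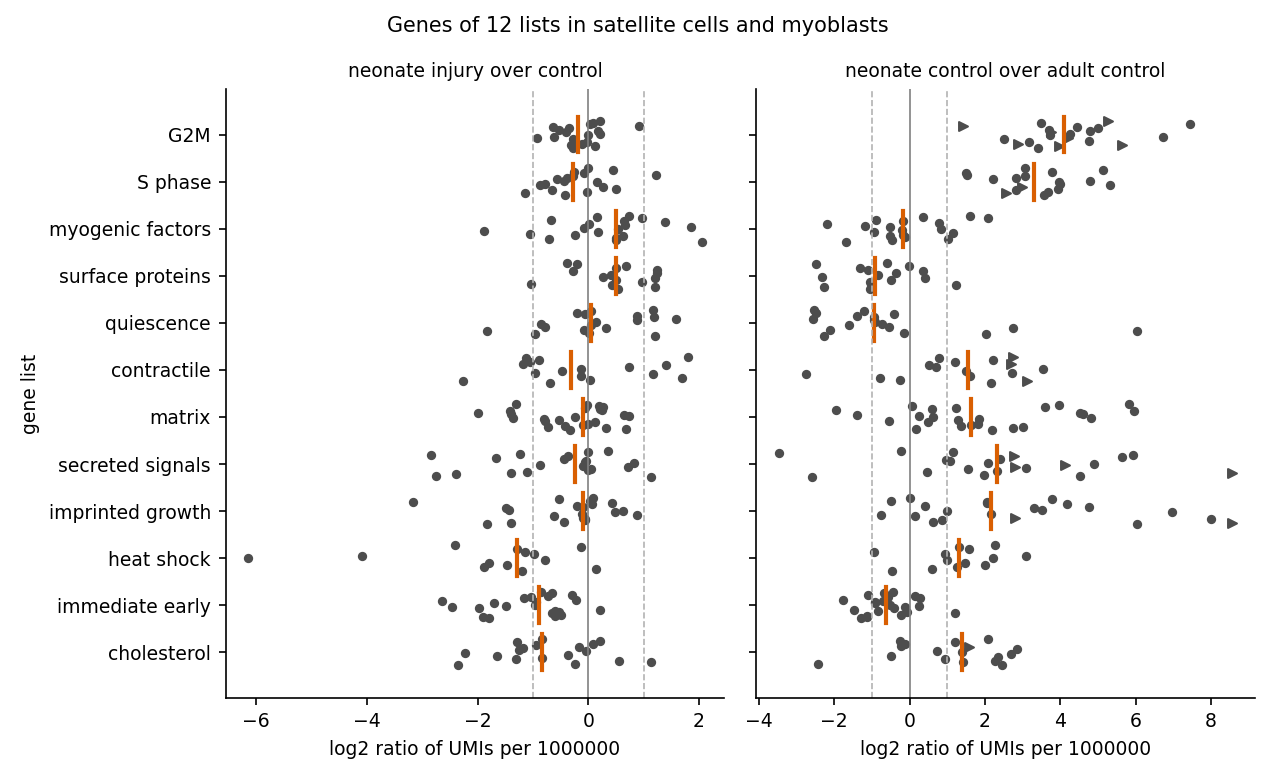
Log2 ratio of UMIs per 1000000 (x axis) for each measured gene of 12 lists (y axis) in the selected cells, for injured over uninjured neonate (left) and uninjured neonate over uninjured adult (right). Points are genes, vertical bars list medians, dashed lines a 2-fold difference, and triangles genes at 0 in the adult drawn at their lower bound. The G2M median is -0.18 on the left and 4.09 on the right.

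The 12 selected cells of the injured adult gave levels only, with 1 UMI worth 9.28 CPM and a floor of 3 UMIs at 27.8 CPM. They stood with the uninjured adult in Pax7, Heyl (167 CPM against 209) and Notch3 (353 against 394). Dlk1 was at 0 in both. Myod1 stood at 316 CPM against 142, and Des at 390 against 645. H19 stood at 251 CPM and Mest at 130, against 1.63 and 4.89 in the uninjured adult. In the other barcodes of the same libraries H19 stood at 833 CPM against 5.99 and Mest at 306 against 14.8. Postn (periostin), a matrix gene of fibroblasts, had 96.5% of its UMIs in 2 of the 12 barcodes. These cells also carried 214 CPM of macrophage markers and 102 of endothelial markers, against 14.7 and 9.8 in the uninjured adult, and the part of these in the levels above was not tested.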

How the data were processed

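The authors deposited raw counts (UMIs per gene and barcode) for 4 libraries, 1 filtered matrix each, which come from Cell Ranger 8.0.1, per the file headers; the genome build is GRCm39 per the submitters' processing notes. No label gives separate animals. Barcodes with at least 500 genes, 1000 UMIs and no more than 15% of UMIs from mitochondrial genes were kept; the deposited matrices summed to 68644322 to 128626912 UMIs each. Counts of the selected cells were summed per library and scaled to UMIs per 1000000. Log2 ratios had 0.5 UMIs added and were made for genes with at least 50 UMIs in the pair and libraries with at least 20 selected cells; at least 2-fold was the mark. Intervals were exact 95% (Poisson for levels, Clopper-Pearson for shares and ratios) and cover counting error only. A count of 0 allows up to 3 UMIs. The ratio code was tested on simulated data.

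Named genes were the selection genes, up to 4 of each of 23 gene lists with the largest ratios, the 10 highest and lowest per comparison (some are not reported here), 15 against other barcodes and 10 on each side against Myog-positive myocytes; genes given for the adult injury, the Myod1 split and the mixed barcodes were chosen after their values were seen, as were further list members named for their role. The selected cells and the lists were chosen with earlier results of these data known. Doublets were scored with Scrublet in scanpy 1.11.5 at 0.8% per 1000 barcodes; marked barcodes were kept in the main values and left out in an alternative. Other alternatives were other filters, gates, pseudocounts and scalings, thinning (expected shares at 2000 UMIs are hypergeometric), and, chosen after seeing the data, the removal of mixed barcodes. Fewer cells of a type and less muscle in the sample cannot be told apart.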

Additional observations from a re-analysis of the deposited data

How the results depend on the processing

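No paired analysis was possible because each group has 1 library. With at least 20 UMIs in the pair 1098 genes were higher and 1062 lower with neonatal injury, and with at least 200 UMIs 167 and 326. Without cells holding at least 2 G2M UMIs at full depth the counts were 296 and 410, and 991 and 1252 when the injured cells were those with Y-linked UMIs alone; fewer cells give wider counting error. For age, 1564 genes were lower in the neonate with at least 20 UMIs, 1149 were higher and 409 lower with at least 200, and 925 and 587 without cells holding at least 2 G2M UMIs at full depth. Without mixed barcodes, an alternative chosen after seeing the data, the counts were 574 and 602 for injury and 1945 and 975 for age. The share in the uninjured neonate was 0.718% after thinning, 3.15% with the stricter rule, 3.74% without Ptprc, Pecam1 or Pdgfra UMIs and 4.10% without mixed barcodes. In the injured neonate it was 0.305% after thinning and 0.625% with the stricter rule, and in the uninjured adult 0.670% after thinning. With 1 G2M UMI as the mark, 48.1% of cells of the uninjured and 50.4% of the injured neonate met it, and without thinning 67.4%, 58.9% and, in the uninjured adult, 8.57%. In the injured adult 3 of 12 cells (25%, interval 5.49 to 57.2) met the mark under either setting. Among named genes past 2-fold, Cdc6 and Slc2a1 changed sign, from -1.14 and -1.49 to 0.16 and 1.00 in the 22 injured cells with Y-linked UMIs alone. Of the alternative list medians 425 lay within the order-statistic interval of the main median and 5 outside, and of the ratios of named genes 1760 lay within the main counting interval and 158 outside. Depth limits the adult injury, where 1 UMI in 12 cells is 9.28 CPM.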

Other observations

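Homeobox and limb genes were detected at low levels in the selected cells. Hoxc10, a hindlimb-level gene, stood at 29.2, 72.4, 29.3 and 0 CPM in the uninjured neonate, injured neonate, uninjured adult and injured adult, and Hoxa9 at 25.4, 17.8, 14.7 and 0. The log2 ratio of Hoxc10 with neonatal injury was 1.31, and 0.59 in the injured cells with Y-linked UMIs alone. Tbx5, the forelimb factor, was at 2.42 CPM in the uninjured neonate and at 0 in the other 3 libraries, and Pitx1, the hindlimb factor, at 8.83 CPM and 0. Pax3, the Pax7 paralogue of migrating precursors, stood at 1.21, 3.15, 0 and 0 CPM.

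Of 16 glycolysis genes 2 were at least 2-fold higher with neonatal injury and 1 lower. Hk1 and Hk2, the hexokinase genes, were higher with neonatal injury by log2 ratios of 1.39 and 1.43, while Slc2a1, the glucose transporter GLUT1, was lower by -1.49 and changed sign in the injured cells with Y-linked UMIs alone, at 1.00. Hk2 stood at 292 CPM in the uninjured adult and 16.4 in the uninjured neonate. The metallothionein gene Mt1, which binds zinc and copper, stood at 1903 CPM in the uninjured adult and 437 in the uninjured neonate. Of 18 oxidative phosphorylation genes 6 were at least 2-fold higher in the neonate than in the adult, or 3 under scaling by the median of ratios, and 0 were lower.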
